A study of Mus musculus with 12 samples.

Results

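Primary mouse chondrocytes given a plasmid for the SIRT5F101L mutant were compared with Control chondrocytes across all genes. The members are 8 of the study's 12 libraries, chosen by their treatment label: 4 labelled SIRT5F101L mutant and 4 labelled Control. The other 4 libraries carry the treatment label WT, for cells given a wildtype plasmid, and serve here only to estimate the spread and for 1 direct test. Every library is labelled as primary chondrocytes of wild type genotype, so no group is labelled as lacking its own Sirt5 gene. What the Control cells received, the species of the plasmid's SIRT5, and the age, strain, sex and skeletal site of the mice are not given in the sources used here. Neither is the time between transfection and harvest, nor whether the 4 libraries of a group came from separate cultures or animals. The p-values therefore measure the spread between these libraries, which may be technical.

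SIRT5 is a sirtuin, a deacylase that uses NAD, and is found mainly in mitochondria. It removes malonyl, succinyl and glutaryl groups from lysines, and its known substrates include enzymes of glycolysis, the tricarboxylic acid (TCA) cycle and fatty acid oxidation. Chondrocytes make the extracellular matrix of cartilage, built on collagen II fibrils and on aggrecan, and live largely from glycolysis. In osteoarthritis, inflammatory cytokines acting through NF-kB are known to raise matrix proteases, prostaglandins and nitric oxide and to lower matrix genes.

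The values are reads counted per Ensembl mouse gene ID. Control libraries held 18233484 to 19905485 counts and SIRT5F101L libraries 15095357 to 24242139. Of the 57010 IDs, 14253 passed edgeR's filter on low counts and were tested, and 31288 were listed at 0 in all 12 libraries. The IDs listed at 0 include all 2414 on the X chromosome, all 1547 on the Y chromosome and all 37 of the mitochondrial genome, and well-known autosomal genes such as B2m, Ccl2, Cxcl10, Hif1a, Myd88, S100a9 and Timp3, for which no level can be read. Levels are counts relative to library size after TMM scaling (CPM), given as mean ± SD over 4 libraries, and depend on transcript length, so they are compared between groups and not between genes. Genes were called at a Benjamini-Hochberg adjusted p under 0.05 in edgeR's 2-sided quasi-likelihood test.

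One library stood apart within its group. On the first principal component of log2 CPM over the 8 libraries, which held 77.5% of the variance, Control libraries lay at -58.5 to -54.6, SIRT5F101L replicates 2, 3 and 4 at 58.3 to 59.7, and SIRT5F101L replicate 1 at 49.5. On the second component, with 5.55%, replicate 1 lay at -34.3, the other SIRT5F101L libraries at 7.84 to 11.9 and Control libraries at -11.2 to 9.96. The regression slope of log2 CPM against log2 transcript length was -0.0592 in replicate 1, within the Control range of -0.0664 to -0.0442, and 0.0805 to 0.103 in the other SIRT5F101L libraries. The respiratory, transcription factor and sirtuin counts are given with and without it. Of the 211 genes called and chosen by the naming rule besides Sirt5, 209 were called in the same direction without it and 2, Acacb and Rel, were not called. Without it the log2 fold changes were 7.77 for Saa3, 4.94 for Cxcl5, 6.74 for Ccl5, -0.93 for Bst2, -0.23 for Adamts5, -1.61 for Cdkn2a and -0.92 for Ndufa7.

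Sirt5 (ENSMUSG00000054021), the gene named on the plasmid, was covered by 11, 15, 9 and 16 counts in the Control libraries, in replicate order, and by 9, 19, 15 and 10 in the SIRT5F101L libraries. The groups overlapped, at 0.688 ± 0.169 CPM in Control and 0.720 ± 0.346 CPM in SIRT5F101L (SD, n = 4). The log2 fold change was 0.03 (edgeR adjusted p = 0.954, SE 0.45), and an exact 2-sided permutation test over the 70 arrangements of the 8 libraries gave p = 0.886, where 0.0286 is the smallest p it can give. No rise in mouse Sirt5 was detectable at this depth. The count checks the plasmid label only if the plasmid carries mouse Sirt5 sequence that was counted. The sign turned without SIRT5F101L replicate 2, at -0.315, without Control replicate 3, at -0.106, and with upper-quartile scaling, at -0.0109.

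Across the transcriptome, 8647 of the 14253 genes tested (60.7%) were called by edgeR, 4274 higher in SIRT5F101L (30.0%) and 4373 lower (30.7%). The median log2 fold change was 0.67 among genes called higher and -0.60 among genes called lower, and -0.02 over all genes tested. At least 2-fold were 2496 genes (17.5%), 1403 higher (9.84%) and 1093 lower (7.67%). At least 8-fold were 214 genes higher and 119 lower, and at least 32-fold 50 higher and 32 lower, by fitted fold changes. In 7317 genes (51.3%) the 4 SIRT5F101L values and the 4 Control values did not overlap.

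**Figure D1:**
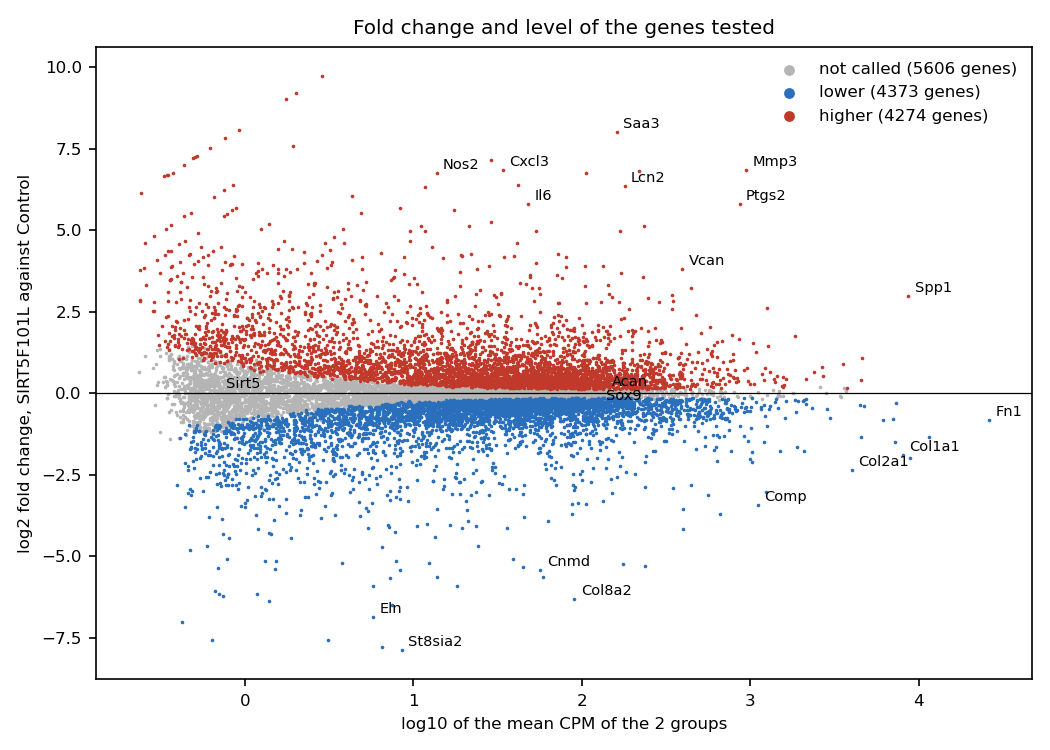
Each point is 1 of the 14253 genes tested, with log10 of its mean CPM on the x axis and its log2 fold change, SIRT5F101L against Control, on the y axis. The 4274 genes called higher (red) and the 4373 called lower (blue) lie on both sides of 0 at every level, with Saa3, Mmp3 and Lcn2 near the top and St8sia2, Eln and Col8a2 near the bottom.

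Restricted to called genes that averaged 5 CPM or more over the 8 libraries and did not overlap, the 10 highest fold changes were those of Saa3, S100a8, Cxcl3, Mmp3, Ccl5, Nos2, Oasl1, Slco4a1, Lcn2 and Mcpt8, with log2 fold changes of 6.33 to 8.02. They encode acute-phase proteins, chemokines, a matrix protease, the inducible nitric oxide synthase, an antiviral protein, an organic anion transporter and a serine protease. Saa3, an acute-phase serum amyloid A, stood at 1.63, 0.608, 1.70 and 1.04 CPM in Control replicates 1 to 4 and at 476, 282, 271 and 254 CPM in SIRT5F101L replicates 1 to 4. SIRT5F101L replicate 1 was the highest, and the groups were far apart. The log2 fold change was 8.02 (edgeR adjusted p = 4.82e-16, SE 0.25).

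The 10 lowest fold changes were those of St8sia2, Krt75, Eln, Ibsp, Col8a2, Megf6, Ggt5, Cilp, Car3 and Clec3b. St8sia2 adds polysialic acid chains to proteins such as NCAM. It had 18.3, 18.8, 14.7 and 16.1 CPM in Control and 1, 2, 0 and 2 counts in the SIRT5F101L libraries, a ratio of 261 with a 95% interval of 111 to 804 that covers counting error only. Eln, which encodes elastin, had 8.56 to 12.8 CPM in Control and 1, 0, 3 and 3 counts in SIRT5F101L, a ratio of 125 (60.2 to 311). Krt75, a keratin, had 4 counts in all over the SIRT5F101L libraries, a ratio of 248 (96.4 to 910). These genes had at most 3 counts in any SIRT5F101L library, so the fitted log2 fold changes of -7.88, -6.87 and -7.77 carry less precision than those of genes such as Col8a2.

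**Figure D2:**
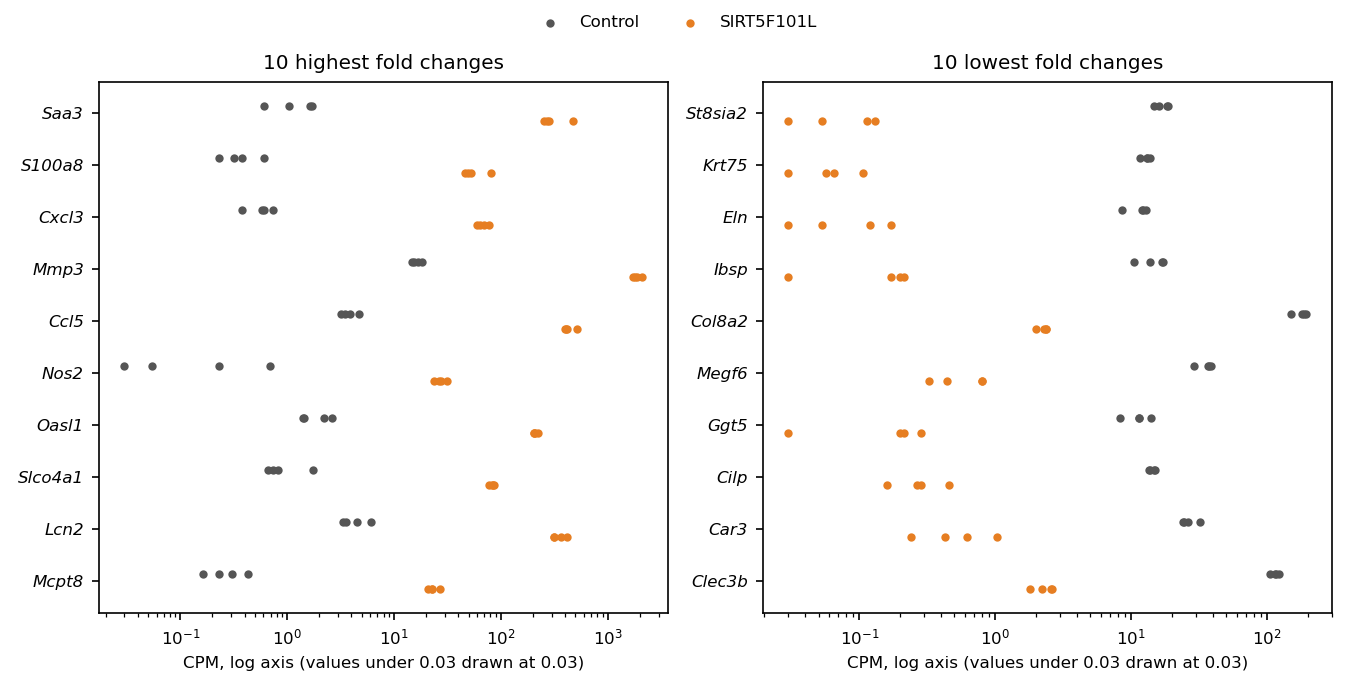
CPM on a log axis in each of the 4 Control (grey) and 4 SIRT5F101L (orange) libraries for the 10 highest (left) and the 10 lowest (right) log2 fold changes, restricted to called genes averaging 5 CPM or more. The groups do not overlap in any of them, as the rule requires, and for St8sia2, Krt75, Eln, Ibsp and Ggt5 at least 1 SIRT5F101L library is at 0 and drawn at 0.03.

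Promoter sequences of some of the strongly changed genes show the letters that inflammatory transcription factors are known to bind. RefSeq windows of 250 bases before each gene's start (GRCm38.p6) were searched on both strands for an NF-kB consensus of 10 bases, the interferon-stimulated response element (GAAA, any 2 bases, GAAA), the AP-1 element TGANTCA and the C/EBP element TTGCNNAA. The motifs, and the choice of Il6, Cxcl1 and Rsad2 for printing, were made after the values were seen. Matches stand in capitals, all sequences run 5′ to 3′ on the gene's strand, and a match is a description of letters and not a site. Cxcl3 and Cxcl1 are shown for NF-kB, Il6 for NF-kB, AP-1 and C/EBP, Mmp3 for AP-1 and C/EBP, Saa3 for the response element and C/EBP, and Rsad2 for the response element and AP-1. They lie at chr5:90785851-90786100 and chr5:90890995-90891244 (both on the plus strand), chr5:30012864-30013113 (plus), chr9:7445572-7445821 (plus), chr7:46715677-46715926 (minus) and chr12:26456453-26456702 (minus).
Cxcl3: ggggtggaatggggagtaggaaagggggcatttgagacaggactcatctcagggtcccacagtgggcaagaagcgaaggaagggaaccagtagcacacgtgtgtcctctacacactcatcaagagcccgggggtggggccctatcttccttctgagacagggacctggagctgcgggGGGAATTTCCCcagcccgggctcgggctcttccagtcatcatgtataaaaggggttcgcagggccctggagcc
Cxcl1: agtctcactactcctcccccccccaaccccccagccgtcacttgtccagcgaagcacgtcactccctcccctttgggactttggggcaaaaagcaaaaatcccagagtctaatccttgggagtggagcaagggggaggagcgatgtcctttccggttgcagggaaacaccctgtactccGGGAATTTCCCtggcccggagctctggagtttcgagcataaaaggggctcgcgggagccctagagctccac
Il6: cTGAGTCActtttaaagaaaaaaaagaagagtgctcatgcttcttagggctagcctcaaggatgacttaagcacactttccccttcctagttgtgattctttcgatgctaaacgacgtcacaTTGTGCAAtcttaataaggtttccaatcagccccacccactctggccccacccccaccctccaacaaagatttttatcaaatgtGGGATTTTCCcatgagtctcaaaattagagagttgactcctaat
Mmp3: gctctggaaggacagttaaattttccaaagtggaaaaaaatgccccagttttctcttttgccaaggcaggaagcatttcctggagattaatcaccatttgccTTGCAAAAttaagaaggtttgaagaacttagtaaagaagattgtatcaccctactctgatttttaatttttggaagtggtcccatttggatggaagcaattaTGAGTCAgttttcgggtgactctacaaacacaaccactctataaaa
Saa3: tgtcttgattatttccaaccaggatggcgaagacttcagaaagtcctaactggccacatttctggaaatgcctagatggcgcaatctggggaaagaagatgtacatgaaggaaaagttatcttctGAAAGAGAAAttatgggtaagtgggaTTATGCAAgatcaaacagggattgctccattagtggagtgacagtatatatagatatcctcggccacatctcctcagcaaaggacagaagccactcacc
Rsad2: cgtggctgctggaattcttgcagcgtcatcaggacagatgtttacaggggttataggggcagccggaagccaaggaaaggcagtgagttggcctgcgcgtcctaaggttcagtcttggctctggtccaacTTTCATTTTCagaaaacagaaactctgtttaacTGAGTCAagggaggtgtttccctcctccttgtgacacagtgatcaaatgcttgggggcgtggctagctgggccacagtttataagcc

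In Cxcl3 and Cxcl1 the 10-base match on the plus strand was the same, GGGAATTTCC, starting 73 and 71 bases before the gene's start, and it overlapped a match on the minus strand shifted by 1 base. In Il6 the NF-kB match GGGATTTTCC began at -44, a C/EBP match at -128 and an AP-1 match, TGAGTCA, at the far end of the window. The same AP-1 letters began at -46 in Mmp3 and at -87 in Rsad2. Of the 10 highest genes, Ccl5 and Nos2 are not in the promoter table, S100a8, Slco4a1 and Mcpt8 held no match to any of the 4 motifs in this window, and the other 5 held at least 1. Among 337 genes called at least 4-fold higher that have a promoter in the table, 13.1% held the AP-1 letters and 16% the C/EBP letters. The shares were 7.44% and 11.2% of 215 genes called at least 4-fold lower, 5.99% and 8.83% of the 10307 genes tested, and 6.75% and 9.56% of all 32851 promoters in the table. For the NF-kB consensus they were 13.4% of the genes at least 4-fold higher, 11.6% of those at least 4-fold lower, 10.8% of genes tested and 7.25% of all promoters, and for the response element 4.75%, 2.33%, 3.12% and 2.98%. In shares of genes, a gene counted if any of its promoters matched. Shares of all promoters counted each promoter, so these 2 kinds of share are unlike measures. An earlier search used windows that also held the 50 bases after the start. In it the NF-kB consensus stood in 14.8% of genes at least 4-fold higher, 14.4% of those at least 4-fold lower and 12.6% of genes tested. For the response element these shares were 5.04%, 3.72% and 3.65%. For AP-1 they were 15.7%, 8.37% and 6.75%, and for C/EBP 17.5%, 13.5% and 9.9%. None of the shares of either search was tested.

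The genes below are grouped by role in 38 lists with 977 distinct genes. Of these, 849 were tested, 345 were called higher and 320 lower, and 55 were listed at 0 in all 12 libraries. Among all genes tested, 60.7% were called, 30.0% higher and 30.7% lower, with a median log2 fold change of -0.02. The lists were chosen with earlier results of these data known, so their counts describe these genes and carry no test.

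**Figure D3:**
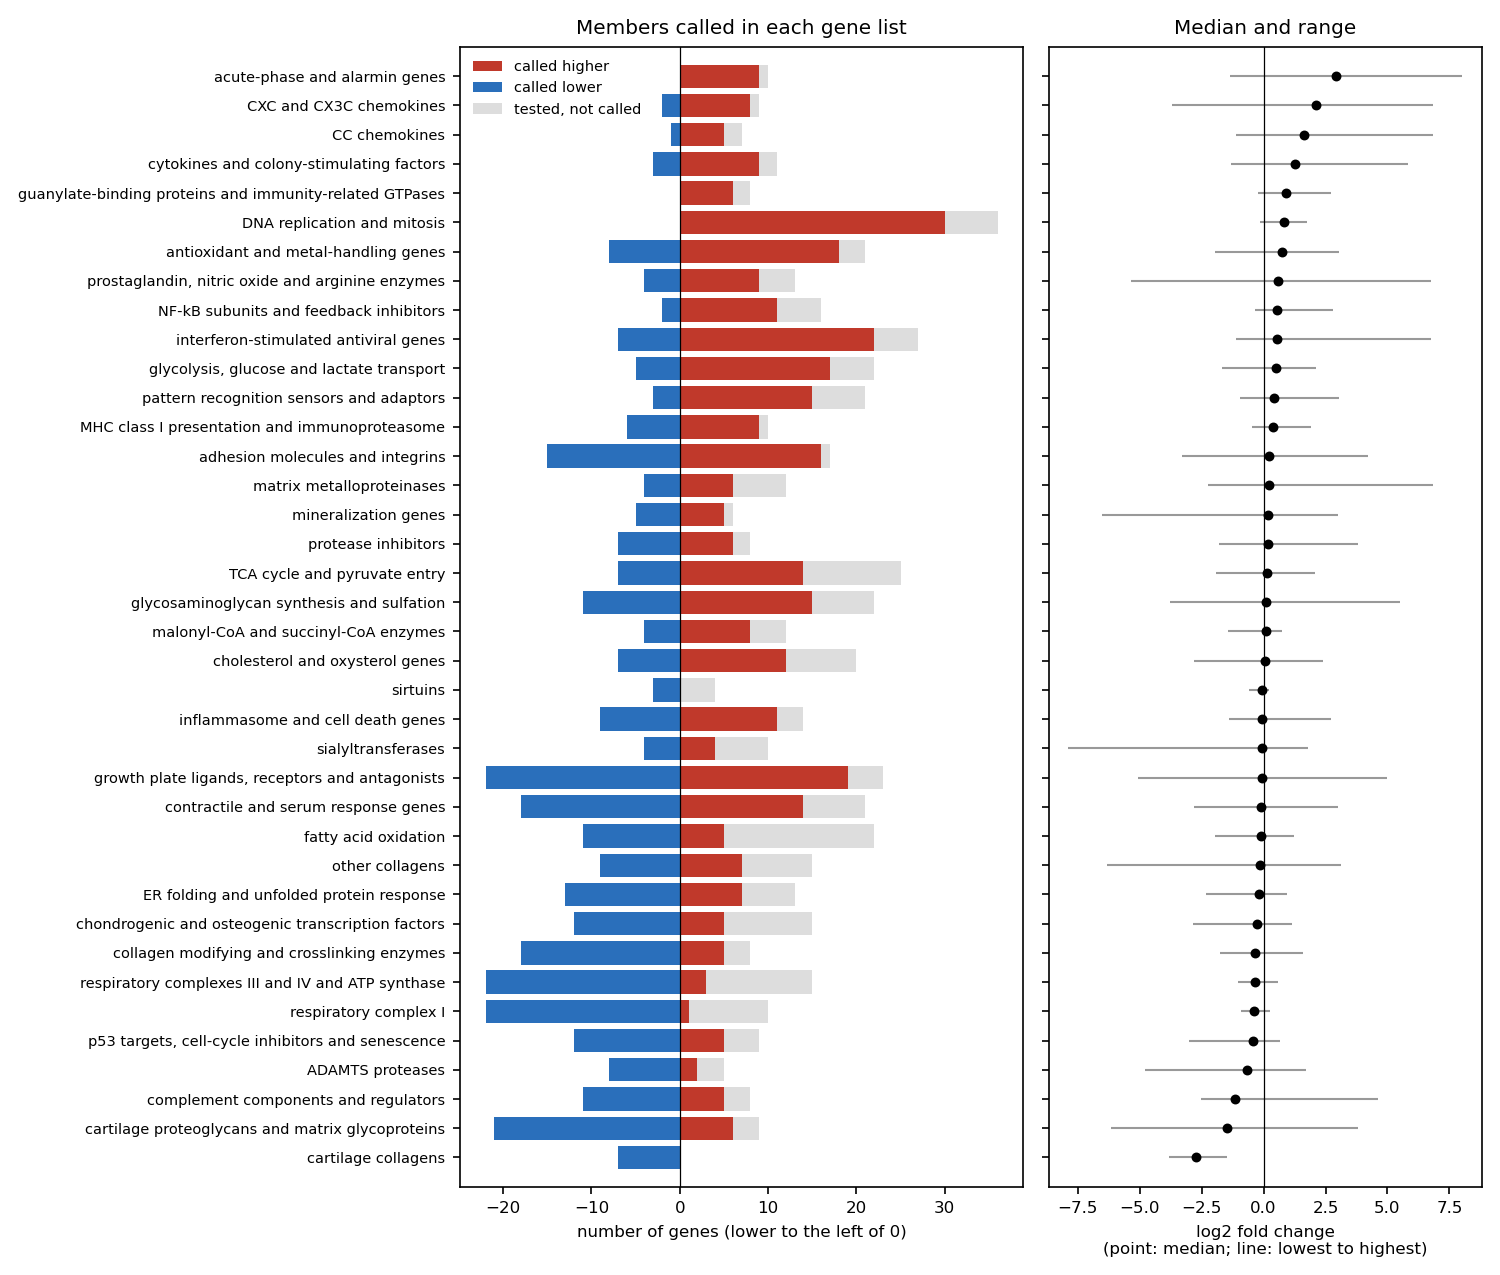
Left, the number of genes in each of the 38 lists that edgeR called higher (red, right of 0) or lower (blue, left of 0) in SIRT5F101L, with tested genes that were not called in grey. Right, the median log2 fold change of each list (point) and its lowest and highest member (line): medians run from -2.74 for cartilage collagens to 2.94 for acute-phase and alarmin genes, and most lists hold members on both sides of 0.

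Acute-phase and alarmin genes had the highest median of the 38 lists. Of 10 tested, 9 were higher and 0 lower, with a median log2 fold change of 2.94, and their summed level was 39.9 ± 3.73 CPM in Control and 915 ± 169 CPM in SIRT5F101L. Lcn2, lipocalin-2, an iron-siderophore-binding protein of innate defence, stood at 4.47, 3.55, 3.30 and 6.11 CPM in Control and at 420, 369, 318 and 314 CPM in SIRT5F101L, a log2 fold change of 6.35 (SE 0.15). S100a8, a subunit of calprotectin, rose from 0.385 ± 0.161 to 57.3 ± 15.9 CPM (7.17, SE 0.25), while its partner S100a9 is listed at 0. Saa1 had 0 counts in Control and 78 in SIRT5F101L, 25.1-fold higher when Control is set at a floor of 3 counts over the group. The lower 95% counting limit of the ratio was 19.9. Cp (ceruloplasmin, a copper-carrying ferroxidase), Hp (haptoglobin) and Slpi (a leukocyte protease inhibitor) rose by log2 fold changes of 2.79, 2.2 and 2.19. Orm2 was the member not called, at -1.37.

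Chemokines, which draw leukocytes through their receptors, were split by family member. Of 11 CXC and CX3C chemokines tested, 8 were higher, 2 lower and 1 was not called, with a median log2 fold change of 2.11. Cxcl3, a neutrophil attractant, rose from 0.580, 0.608, 0.745 and 0.382 CPM in Control to 78.4, 59.9, 63.8 and 69.0 CPM in SIRT5F101L. Cxcl5, another, rose from 8.73 to 12.2 CPM across Control libraries to 318 to 358 CPM, and Cxcl1 from 12.4 to 13.8 CPM to 172 to 232 CPM. The groups did not overlap in any of these, as in 51.3% of all genes tested and as the naming rule required of Cxcl3. The log2 fold changes were 6.85, 4.99 and 3.91. Ppbp rose by 5.25 and Cxcl9, a ligand of the receptor CXCR3 on T cells, by 5.14. Cxcl12, a chemokine that stromal cells make constitutively, went the other way, from 1260, 1220, 1270 and 1180 CPM in Control to 102, 89.8, 90 and 95.5 CPM in SIRT5F101L. Its log2 fold change of -3.71 (edgeR adjusted p = 6.47e-20, SE 0.06) outweighed the others in the summed level, which was 1370 ± 38.6 CPM in Control and 945 ± 68.9 CPM in SIRT5F101L.

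Of 8 CC chemokines tested, 5 were higher, 1 lower and 2 were not called, and 10 others in the list were not tested. Ccl5, an attractant of T cells and monocytes, stood at 3.48, 3.90, 4.68 and 3.22 CPM in Control and at 518, 418, 409 and 399 CPM in SIRT5F101L, a log2 fold change of 6.83 (SE 0.12). Ccl7, a monocyte attractant, rose from 31.1 ± 1.62 to 260 ± 40.1 CPM (3.06). Both groups were narrow beside the gap between them. Ccl20 had 13 counts in Control and 158 in SIRT5F101L, a ratio of 11.7 (95% interval 6.67 to 22.5).

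Of 14 cytokines and colony-stimulating factors tested, 9 were higher, 3 lower and 2 were not called, with a median log2 fold change of 1.27. Il6, which signals through gp130, stood at 1.92, 1.77, 1.17 and 1.80 CPM in Control and at 92.4, 99.8, 90.7 and 93.4 CPM in SIRT5F101L, a log2 fold change of 5.82 (edgeR adjusted p = 1.13e-19, SE 0.11). Lif and Il11, of the same family, rose by 4.23 and 2.66. Tnfsf11, which encodes RANKL, the ligand that drives osteoclast formation, was at 0.203 to 0.982 CPM in Control and at 17.5 to 19.4 CPM in SIRT5F101L (4.97). Tslp rose by 3.31 and Il33 by 1.40, both known as epithelial and stromal alarm cytokines. Il1rn, the secreted antagonist of the IL-1 receptor, fell from 685 ± 42.6 to 432 ± 26.5 CPM (-0.67), and Il18 fell from 6.78 ± 1.44 to 2.76 ± 0.366 CPM (-1.3). Tnf, Il1a, Il1b, Csf2 and Csf3 were among 12 members with too few counts to test. Tnf had 17, 16, 19 and 6 counts in Control and 1, 2, 5 and 0 in SIRT5F101L.

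NF-kB is held in the cytosol by inhibitors that are also among its targets, so members of this list act in both directions. Of 18 tested, 11 were higher, 2 lower and 5 were not called, with a median log2 fold change of 0.54. The rises were led by Nfkbiz (2.81), a nuclear co-regulator of Il6 and Lcn2, by the feedback inhibitor Tnfaip3 (1.85) and by Bcl3 (1.62). Nfkbia, which encodes the inhibitor IkB alpha, stood at 31.3 to 35.6 CPM in Control and at 63.9 to 77.6 CPM in SIRT5F101L, a log2 fold change of 1.09 (SE 0.08). Rela, the main activating subunit, rose by 0.26. Rel, called lower at -0.34, was not called without Control replicate 4 or without SIRT5F101L replicate 1 (-0.28 and -0.23).

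Of 24 pattern recognition sensors and adaptors tested, 15 were higher, 3 lower and 6 were not called. Zbp1, a sensor of Z-form nucleic acids, rose from 7.16 ± 0.768 to 58.8 ± 3.41 CPM (log2 fold change 3.04, SE 0.09), and Cd14, a co-receptor for bacterial lipopolysaccharide, from 12.4 ± 1.02 to 59.7 ± 8.84 CPM (2.27, SE 0.10). Nod2, Ifih1, Tlr4 and Tlr2 rose by 1.80, 1.47, 1.19 and 1.17, and Sting1, which relays cytosolic DNA signals, by 0.88. Tlr6, Ticam1 and Irf3 fell by 0.95, 0.63 and 0.62 on the log2 scale. Cgas, the DNA sensor upstream of Sting1, was not called at 0.36.

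Interferon-stimulated antiviral genes did not move as a block. Of 34 tested, 22 were higher, 7 lower and 5 were not called, with a median log2 fold change of 0.53. Oasl1, an inhibitor of Irf7 translation, stood at 2.21, 2.63, 1.44 and 1.42 CPM in Control and at 224, 204, 210 and 205 CPM in SIRT5F101L (6.77, SE 0.11). Rsad2, which encodes viperin, rose from 3.25 ± 0.391 to 104 ± 13.2 CPM (4.99), and its neighbour Cmpk2 rose by 3.72. Behind these 3 the rises were smaller: Irf7 rose from 144 ± 6.89 to 450 ± 36.1 CPM (1.65) and Ifit1 from 288 ± 8.02 to 692 ± 52.0 CPM (1.27). Bst2, Ifit3 and Isg20 fell by 0.76, 0.81 and 1.11 on the log2 scale. In Bst2, SIRT5F101L replicate 1 was the highest of its group, at 479 CPM against 320 to 325 CPM, still below the Control range of 587 to 672 CPM. Isg15 and Usp18, with log2 fold changes of 0.17 and 0.13, were not called.

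Of 8 guanylate-binding proteins and immunity-related GTPases tested, 6 were higher and 0 lower, led by Gbp5 (2.71) and Gbp7 (1.87). Of 16 genes for MHC class I presentation and the immunoproteasome, 9 were higher and 6 lower. Nlrc5, the transactivator of class I genes, rose by 1.92, H2-K1 by 1.10 (from 406 ± 25.4 to 872 ± 112 CPM) and the immunoproteasome subunit Psmb8 by 1.45. The peptide transporter genes Tap1 and Tap2 fell by 0.48 and 0.34 on the log2 scale, and B2m, the light chain of class I molecules, is listed at 0.

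Complement genes were more often lower than higher. Of 19 tested, 5 were higher, 11 lower and 3 were not called, with a median log2 fold change of -1.17. C3, the component on which the pathways converge, stood at 3.83, 3.29, 3.14 and 2.62 CPM in Control and at 77.3, 80.5, 79.7 and 80 CPM in SIRT5F101L (4.62, SE 0.10). Masp1, a protease of the lectin pathway, rose from 346 ± 21.8 to 1210 ± 34.2 CPM (1.80). Genes of the classical pathway fell: C4b from 166 ± 13.7 to 56.3 ± 4.18 CPM (-1.56), C1s1 by 1.61, C1ra by 1.91 and C1qa, C1qb and C1qc by 2.52, 2.15 and 2.45 on the log2 scale. The C1q genes and the receptor genes C3ar1 and C5ar1 are also macrophage genes, and 9 of the 11 macrophage and leukocyte markers tested were lower. The summed level of those markers was 189 to 226 CPM in Control and 145 to 183 CPM in SIRT5F101L, with Itgam among them listed at 0. Cd14, the only one of them called higher, made up 12.4 ± 1.03 CPM of that sum in Control and 59.7 ± 8.85 CPM in SIRT5F101L, and the other markers summed to 199 ± 17.3 and 98.2 ± 9.75 CPM. Their part in the fall of these genes was not tested.

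Prostaglandin and nitric oxide synthesis held some of the steepest changes. Of 17 genes tested, 9 were higher, 4 lower and 4 were not called. Ptgs2, the inducible cyclooxygenase COX-2, stood at 29.3, 29.8, 28.4 and 34.1 CPM in Control and at 1510, 1880, 1710 and 1710 CPM in SIRT5F101L, a log2 fold change of 5.81 (edgeR adjusted p = 1.90e-20, SE 0.09). Ptgs1, the constitutive form, rose from 36.3 ± 0.374 to 428 ± 12.3 CPM (3.56), the phospholipase gene Pla2g4a, whose product releases arachidonic acid, rose by 2.80 and the terminal prostaglandin E synthase Ptges by 1.89. Hpgd, which encodes the enzyme that inactivates prostaglandins, fell from 81.6, 90.5, 86.3 and 91.3 CPM to 1.71, 1.56, 2.64 and 2.60 CPM (-5.33, SE 0.13). The groups did not overlap in any of these, as in 51.3% of all genes tested. The other prostaglandin E synthase genes, Ptges2 and Ptges3, were not called, at 0.09 and -0.02. Nos2, the inducible nitric oxide synthase, had 0 to 0.692 CPM in Control and 23.8 to 31.2 CPM in SIRT5F101L (6.77, SE 0.29).

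Matrix metalloproteinases differed by member. Of 16 tested, 6 were higher, 4 lower and 6 were not called. Mmp3 (stromelysin-1), which cleaves proteoglycans and activates other MMPs, stood at 16.8, 14.7, 15.5 and 18.3 CPM in Control and at 2110, 1890, 1790 and 1740 CPM in SIRT5F101L, a log2 fold change of 6.85 (edgeR adjusted p = 1.90e-20, SE 0.10). Mmp13 (collagenase-3), the main collagen II-cleaving enzyme of cartilage, rose from 79.7, 95.3, 92.0 and 78.2 CPM to 626, 655, 599 and 565 CPM (2.82, SE 0.08). The groups did not overlap in either, as in 51.3% of all genes tested and as the naming rule required of Mmp3. Mmp10, close to Mmp3 in sequence, rose from 0.221 ± 0.228 to 6.55 ± 0.997 CPM, and Mmp1b had 2 counts in Control and 118 in SIRT5F101L, a ratio of 57.0 (95% interval 15.4 to 476). The membrane protease gene Mmp14, an activator of proMMP2, fell from 1160 ± 83.0 to 584 ± 42.0 CPM (-1.0), Mmp2 by 0.96, Mmp11 by 1.33 and Mmp23 by 2.27 on the log2 scale. Mmp9, not tested, had 0, 0, 1 and 0 counts in Control and 4, 4, 7 and 8 in SIRT5F101L.

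The genes of both main aggrecanases were lower in SIRT5F101L. Of 13 ADAMTS genes tested, 2 were higher, 8 lower and 3 were not called, with a median log2 fold change of -0.67. Adamts5, a main aggrecanase, stood at 267, 223, 284 and 306 CPM in Control and at 203, 232, 231 and 229 CPM in SIRT5F101L, so the groups overlapped, and its log2 fold change was -0.27 (edgeR adjusted p = 0.00636, SE 0.08). Adamts4, the other, fell from 5.63 ± 1.35 to 2.18 ± 0.468 CPM (-1.37). Adamts2 and Adamts14, which trim procollagen, fell by 1.53 and 1.55, and Adamts7, known to cleave COMP, rose by 1.71. Of 15 protease inhibitors tested, 6 were higher and 7 lower. Reck, a membrane-anchored inhibitor of MMPs, fell from 268, 229, 253 and 283 CPM to 63.8, 74.8, 79.4 and 81.2 CPM (-1.78), the cathepsin inhibitor Cst3 fell by 1.80 and Timp2 by 0.35 on the log2 scale. Serpinb2, an inhibitor of plasminogen activators, rose by 3.81, and Timp3 is listed at 0.

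**Figure D4:**
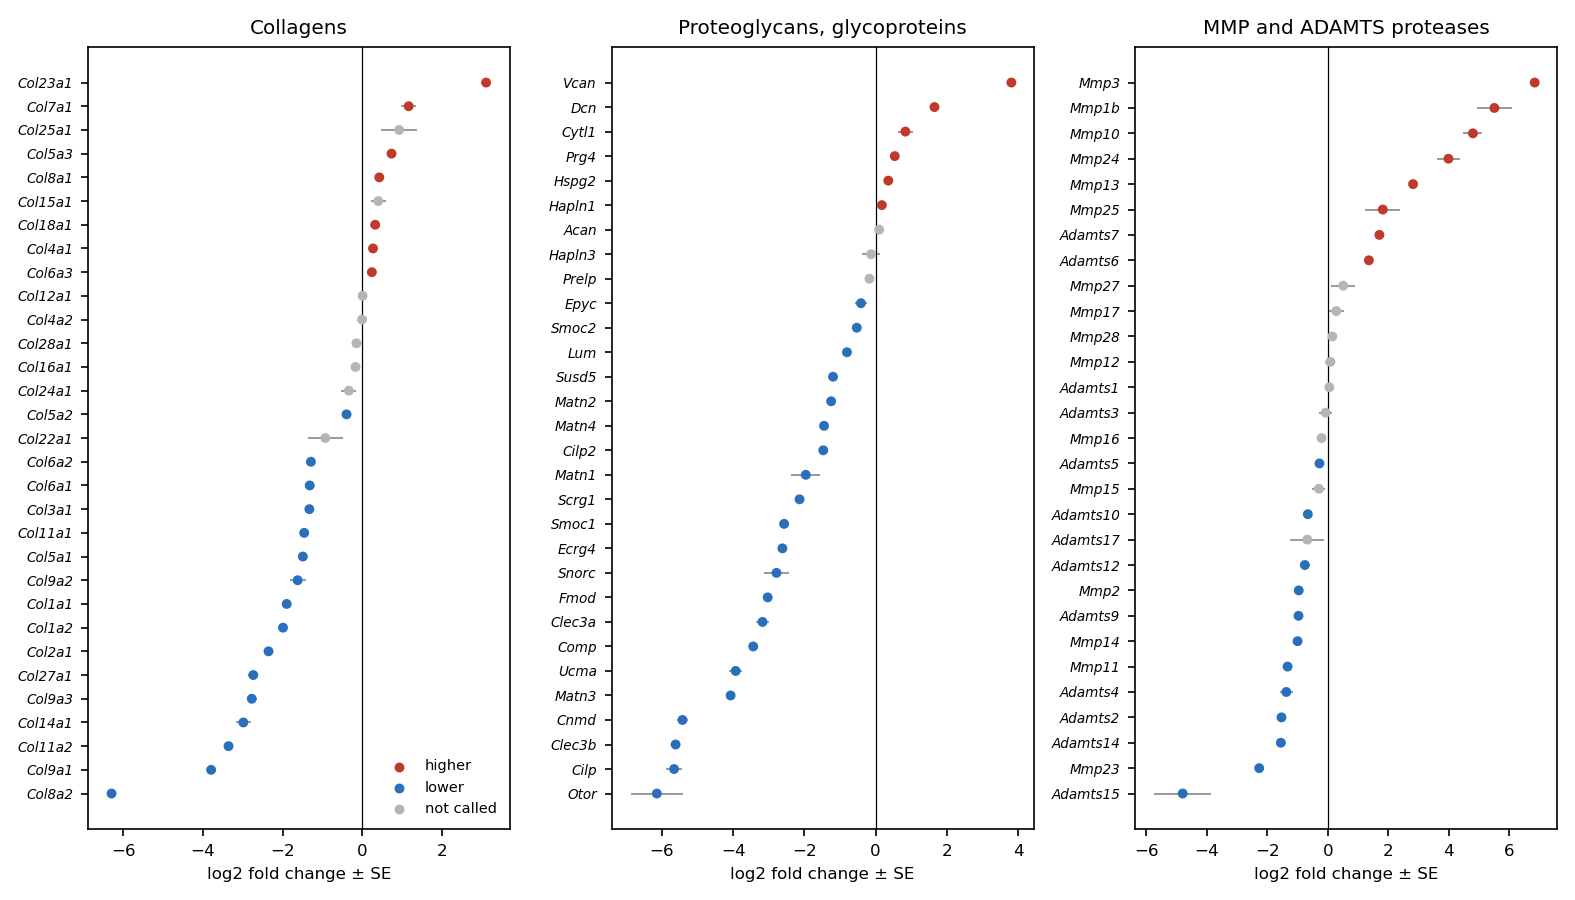
Log2 fold changes (x axis, SIRT5F101L against Control, with SE as bars) of every tested collagen (left), cartilage proteoglycan or matrix glycoprotein (centre) and MMP or ADAMTS protease (right), called higher in red, lower in blue and not called in grey. The 7 cartilage collagens all lie left of 0, Acan lies at 0.10, and Mmp3 and Mmp13 lie at 6.85 and 2.82 while Adamts5 and Adamts4 lie at -0.27 and -1.37.

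Cartilage collagens were lower without exception among those tested. All 7 were called lower, with a median log2 fold change of -2.74, and their summed level was 8520 ± 893 CPM in Control and 1870 ± 102 CPM in SIRT5F101L, while the eighth gene of the list, Col10a1, is listed at 0. Col2a1, the chain of collagen II, stood at 7210, 5700, 6890 and 7060 CPM in Control and at 1360, 1210, 1250 and 1420 CPM in SIRT5F101L (-2.36, edgeR adjusted p = 9.44e-16, SE 0.08). The collagen IX and XI chains, which sit on and within collagen II fibrils, fell with it: Col9a1 from 84.3 ± 5.38 to 6.03 ± 0.862 CPM (-3.80), Col11a2 from 173 ± 24.4 to 16.8 ± 1.35 CPM (-3.36) and Col11a1 from 1420 ± 166 to 518 ± 24.1 CPM (-1.46). In all 7 the groups did not overlap, as in 51.3% of all genes tested. Fewer chondrocytes and less collagen RNA per chondrocyte cannot be told apart in such bulk libraries.

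Collagens of other tissues differed by member. Of 24 other collagens tested, 7 were higher, 9 lower and 8 were not called. Among all genes tested, 30.0% were called higher and 30.7% lower. The fibroblast and bone type genes Col1a1 and Col1a2, for collagen I, fell from 12700 ± 1060 to 3400 ± 338 CPM and from 14200 ± 1270 to 3580 ± 185 CPM (-1.90 and -1.99), and Col3a1 from 6475 ± 473 to 2575 ± 92.2 CPM (-1.33). Col8a2, a short-chain collagen, stood at 188, 150, 195 and 181 CPM in Control and at 2.35, 2.01, 2.28 and 2.38 CPM in SIRT5F101L (-6.30, SE 0.11), the lowest of the collagens listed. The transmembrane collagen Col23a1 rose from 2.33 ± 0.377 to 20.1 ± 1.60 CPM (3.11) and Col7a1 by 1.16. With a correction for the trend on transcript length, 4 of these 24 were higher and 14 lower, and without Control replicate 2, which was the lowest Control library in this list, 4 were higher.

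Of 30 cartilage proteoglycans and matrix glycoproteins tested, 6 were higher, 21 lower and 3 were not called, with a median log2 fold change of -1.46. Acan, which encodes aggrecan, was among those not called: it stood at 142, 111, 132 and 147 CPM in Control and at 137, 138, 141 and 155 CPM in SIRT5F101L (0.10, edgeR adjusted p = 0.243, SE 0.07), and its sign turned to -0.09 with the length correction. Hapln1, the link protein that holds aggrecan on hyaluronan, differed by 0.18. By contrast Comp, a pentameric organiser of collagen fibrils, fell from 2120, 1700, 2140 and 2210 CPM to 197, 191, 177 and 191 CPM (-3.44, SE 0.08). Matn3, a matrilin that bridges collagen and COMP, fell from 44.6 ± 1.46 to 2.67 ± 0.353 CPM (-4.07), and Cnmd (chondromodulin), an inhibitor of blood vessel growth in cartilage, from 111 ± 4.96 to 2.67 ± 0.924 CPM (-5.42). Fmod, a small leucine-rich proteoglycan of collagen fibrils, fell from 2205 ± 152 to 270 ± 10.6 CPM (-3.03), and the intermediate layer protein Cilp, called lower at -5.66, had 21 counts in all over the SIRT5F101L libraries (ratio 52.1, 95% interval 33.9 to 84.5).

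The 6 that were higher were Vcan, Dcn, Cytl1, Prg4, Hspg2 and Hapln1. Vcan, versican, a large hyaluronan-binding proteoglycan more typical of loose and developing tissue, stood at 52.1, 51.7, 49.7 and 56.3 CPM in Control and at 613, 803, 759 and 777 CPM in SIRT5F101L (3.81, edgeR adjusted p = 2.39e-18, SE 0.08). SIRT5F101L replicate 1 was the lowest of its group. Dcn, decorin, rose from 414 ± 12 to 1300 ± 110 CPM (1.66), and Prg4, lubricin of the cartilage surface and synovium, from 1170 ± 110 to 1700 ± 102 CPM (0.54). Within the hyaluronan-binding pair, then, Vcan rose and Acan was not called.

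Enzymes that modify and crosslink collagen were mostly lower: of 26 tested, 5 were higher, 18 lower and 3 were not called, with a median log2 fold change of -0.35. Serpinh1 (HSP47), the collagen chaperone of the endoplasmic reticulum, fell from 2330 ± 72.4 to 689 ± 79.9 CPM (-1.76), and Lox, lysyl oxidase, from 7840 ± 281 to 4440 ± 437 CPM (-0.82). Loxl4 rose from 316 ± 39.0 to 947 ± 63.1 CPM (1.58). Of 33 genes for glycosaminoglycan synthesis and sulfation, 15 were higher and 11 lower, with a median of 0.11. Ugdh, which makes UDP-glucuronate for hyaluronan and chondroitin chains, rose from 332 ± 5.82 to 1020 ± 17.6 CPM (1.61), the hyaluronan synthase Has1 by 2.67, and Xylt1, which starts chains on core proteins, by 1.65. The heparan sulfotransferase Hs3st1 rose from 0.201 ± 0.258 to 9.62 ± 1.63 CPM (5.52), and Extl1 fell by 3.76 on the log2 scale. Papss2 and Slc26a2, which supply activated and free sulfate, fell by 0.53 and 0.46.

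Sox9, the transcription factor that drives Col2a1 and Acan, was lower by a small amount. It stood at 141, 141, 145 and 142 CPM in Control and at 101, 115, 109 and 127 CPM in SIRT5F101L, without overlap, a log2 fold change of -0.34 (edgeR adjusted p = 0.000132, SE 0.06). Its partner Sox5 rose by 1.09 and Sox6 fell by 0.33. Of 27 chondrogenic and osteogenic transcription factors tested, 5 were higher, 12 lower and 10 were not called. Without SIRT5F101L replicate 1, 8 were higher and 11 lower. Dlx5, an osteogenic homeobox factor, fell from 16.1 ± 2.34 to 2.18 ± 0.455 CPM (-2.86), Nkx3-2 and Sp7 fell by 1.71 and 1.53, and Runx2, at 0.13, was not called.

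Growth plate ligands, receptors and antagonists were rearranged in both directions: of 45 tested, 19 were higher, 22 lower and 4 were not called, with a median log2 fold change of -0.07 (-0.18 without SIRT5F101L replicate 3). Among bone morphogenetic proteins, Bmp2 stood at 0.696, 0.861, 0.532 and 0.764 CPM in Control and at 22.1, 22.1, 20.2 and 26.1 CPM in SIRT5F101L (4.97, SE 0.15), while Bmp4 fell from 258 ± 9.15 to 41.6 ± 2.72 CPM (-2.63). Gdf10 fell from 76.2 ± 5.04 to 2.26 ± 0.674 CPM (-5.07), and Gdf5, a joint-forming member, had 15 counts in Control and 326 in SIRT5F101L, a ratio of 21 (12.5 to 37.9). Grem1, a secreted BMP antagonist, rose from 357 ± 6.93 to 2175 ± 69.5 CPM (2.61). Fgfr3, the receptor that restrains growth plate proliferation, fell from 39.2 ± 5.30 to 4.48 ± 0.786 CPM (-3.11), Fgfr2 by 2.24, and the PTHrP receptor gene Pth1r by 1.84. Igf1, an anabolic factor for cartilage, fell from 156 ± 5.49 to 78.8 ± 5.76 CPM (-0.99), and Tgfb2 and Tgfb3 fell by 2.26 and 1.69. The Wnt antagonists Sfrp2, Dkk3 and Wif1 fell by 3.53, 3.12 and 2.69.

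Of 11 mineralization genes tested, 5 were higher and 5 lower. Spp1, osteopontin, was at 1830, 1920, 2000 and 2000 CPM in Control and at 16700, 15800, 14800 and 14400 CPM in SIRT5F101L (2.99, SE 0.08), and Enpp1, which makes the mineral inhibitor pyrophosphate, rose from 109 ± 7.60 to 432 ± 14.3 CPM (1.99). Ibsp, bone sialoprotein, of the same protein family as Spp1, had 10.6 to 17.3 CPM in Control and 12 counts in all over the SIRT5F101L libraries, a ratio of 94.9 (54.1 to 184). Mgp, an inhibitor of calcification, fell by 1.26. Alpl, alkaline phosphatase, was not called at 0.19.

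Sirtuins and enzymes of malonyl-CoA and succinyl-CoA, the donors of the groups that SIRT5 removes, were counted in separate lists. Of 7 sirtuins, 0 were higher, 3 lower and 4, Sirt5 among them, were not called. Without SIRT5F101L replicate 1, 2 were called higher, and 1 was without Control replicate 2, with RLE scaling and with only the 8 libraries compared. Sirt2 fell from 141 ± 4.30 to 97.6 ± 6.07 CPM (-0.53) and Sirt6 from 22.1 ± 2.24 to 14.7 ± 1.3 CPM (-0.58). Sirt4, a mitochondrial sirtuin, was at -0.37 and was not called without Control replicate 1 or 2, without SIRT5F101L replicate 3, or with a correction for the trend on transcript length. Of 16 malonyl-CoA and succinyl-CoA enzymes, 8 were higher and 4 lower, and 2 were lower with DESeq2, with only the 8 libraries compared, and without Control replicate 1, Control replicate 3 or SIRT5F101L replicate 2 in turn. Pccb, a subunit of propionyl-CoA carboxylase, fell the most, from 53.6 ± 4.02 to 20.0 ± 1.68 CPM (-1.42). Mlycd, which breaks malonyl-CoA down, fell from 23.4, 22.6, 22.3 and 21.9 CPM to 15.7, 11.8, 13.1 and 14.6 CPM (-0.71, edgeR adjusted p = 3.07e-06, SE 0.10). Acly, which supplies acetyl-CoA for malonyl-CoA, rose from 188 ± 7.70 to 311 ± 1.85 CPM (0.73), Acaca, which makes it, by 0.27, and Fasn, which consumes it, by 0.72.

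Genes of glycolysis, glucose and lactate transport were mostly higher: of 27 tested, 17 were higher, 5 lower and 5 were not called, with a median log2 fold change of 0.49. Slc16a1, a monocarboxylate carrier for lactate, rose from 38.0, 35.3, 40.8 and 36.1 CPM to 165, 157, 158 and 168 CPM (2.11, SE 0.06), and Hk2, the inducible hexokinase, from 59.0 ± 3.14 to 163 ± 5.59 CPM (1.46). Slc2a1 (GLUT1) rose by 1.24, Pkm by 0.89, Gapdh by 0.60 and Ldha by 0.53. SIRT5F101L replicate 1 had the highest mean log2 CPM over this list, 7.06 against 6.92 to 6.94 in the other 3, and without it 18 were higher and 6 lower. Of 32 genes of the TCA cycle and pyruvate entry, 14 were higher, 7 lower and 11 were not called. Idh2, the mitochondrial isocitrate dehydrogenase that makes NADPH, fell from 101 ± 5.91 to 26.8 ± 2.33 CPM (-1.91). Of 33 fatty acid oxidation genes, 5 were higher, 11 lower and 17 were not called, with Cpt1a, the carnitine transferase that malonyl-CoA inhibits, higher by 1.02 and Acadm lower, at -1.07.

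Subunits of the respiratory chain were mostly lower, by small amounts, and 1 library did not share this. Of 32 nuclear complex I subunits tested, 1 was higher, 22 lower and 9 were not called, with a median log2 fold change of -0.40, and of 37 genes of complexes III and IV and ATP synthase, 3 were higher, 22 lower and 12 were not called, with a median of -0.37. The mean log2 CPM over the complex I list was 5.79 to 5.93 in Control and 5.23 to 5.34 in SIRT5F101L replicates 2 to 4, but 5.87 in SIRT5F101L replicate 1, inside the Control range. For complexes III and IV and ATP synthase it was 6.71 to 6.85 in Control, 6.26 to 6.37 in replicates 2 to 4 and 6.90 in replicate 1. Ndufa7, a complex I subunit, stood at 148, 154, 154 and 136 CPM in Control and at 120, 68.9, 90.1 and 74.0 CPM in SIRT5F101L (-0.75, SE 0.12). Without replicate 1, 28 complex I subunits were lower (median -0.57) and 27 of the others (median -0.52). These transcripts are short, with a median longest transcript of 1025 and 932 bases against 3219 over all genes tested, and the regression slope on transcript length split the libraries the same way. With the length trend as an offset, 21 complex I subunits were lower (median -0.34) and 22 of the others (median -0.25), and 9 of the others were called higher in place of 3. The catalytic subunit gene Atp5b went against the list, from 844 ± 59.1 to 1100 ± 93.7 CPM (0.38).

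**Figure D5:**
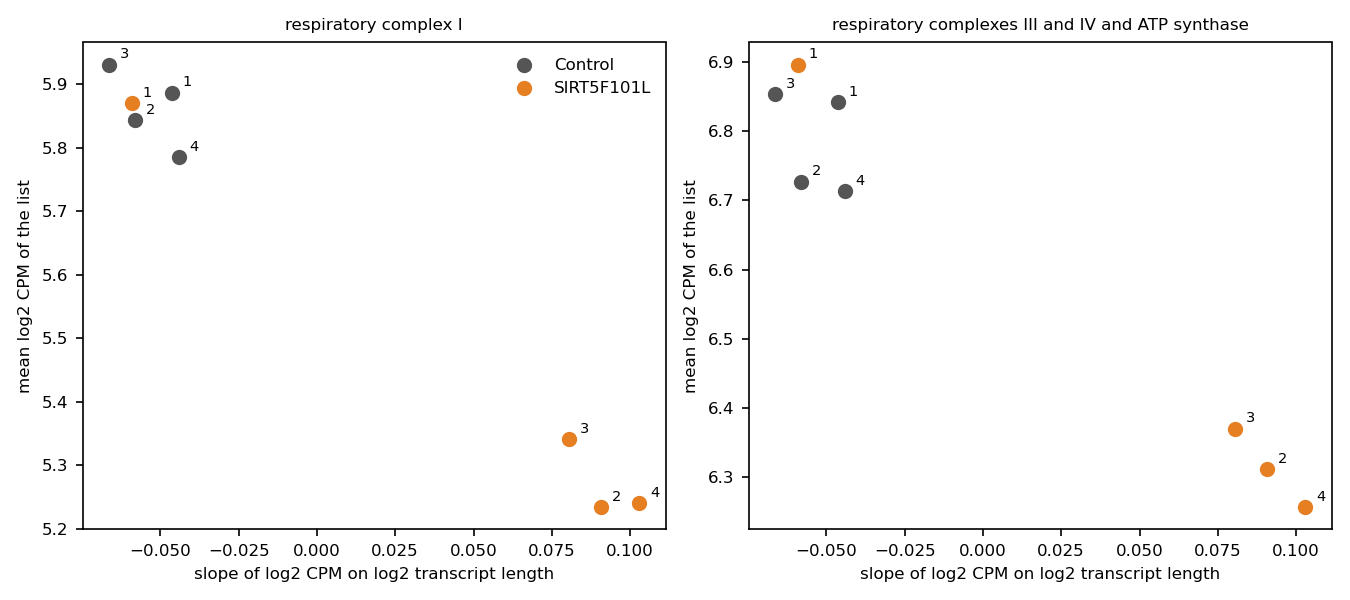
Mean log2 CPM of the complex I list (left) and of complexes III and IV and ATP synthase (right) on the y axis, against each library's length slope (log2 CPM regressed on log2 transcript length) on the x axis, for each Control (grey) and SIRT5F101L (orange) library, numbered by replicate. SIRT5F101L replicate 1, at a slope of -0.0592, sits within the Control range on the left and just above it on the right, at 5.87 and 6.90, and SIRT5F101L replicates 2 to 4 sit apart at slopes of 0.0805 to 0.103.

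Of 29 antioxidant and metal-handling genes tested, 18 were higher, 8 lower and 3 were not called, with a median log2 fold change of 0.73. Slc39a8 (ZIP8), a zinc importer of chondrocytes, rose from 4.82, 4.61, 6.28 and 4.69 CPM to 41.5, 42.8, 41.0 and 42.8 CPM (3.04, SE 0.09), and Slc39a14, a related importer, by 1.92. Nqo1 and Gclc, targets of NRF2, rose by 2.0 and 1.62, while Gpx3, a secreted glutathione peroxidase, fell from 274 ± 20.9 to 70.8 ± 4.30 CPM (-1.95). Of 27 cholesterol and oxysterol genes, 12 were higher and 7 lower. Ch25h, which makes 25-hydroxycholesterol, rose from 3.88 ± 0.826 to 17.6 ± 1.54 CPM (2.18), the sterol exporter Abcg1 by 2.38, and Apoe, a lipid carrier, fell from 123 ± 7.69 to 17.6 ± 2.19 CPM (-2.81).

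DNA replication and mitosis genes that were called were all higher. Of 36 tested, 30 were higher, 0 lower and 6 were not called, with a median log2 fold change of 0.83, and their summed level was 1010 to 1090 CPM in Control and 1900 to 1930 CPM in SIRT5F101L. Mki67, the proliferation marker, rose from 33.7, 38.1, 38.4 and 32.7 CPM to 76.0, 95.2, 89.6 and 93.7 CPM (1.31, SE 0.08), and Cenpe, a kinesin of mitotic kinetochores, by 1.76. Of 21 p53 targets, cell-cycle inhibitors and senescence genes, 5 were higher, 12 lower and 4 were not called. Cdkn2a, the locus of p16 and p19Arf, fell from 186 ± 9.89 to 67.0 ± 12.9 CPM (-1.47), with SIRT5F101L replicate 1 highest of its group at 86.2 CPM, Cdkn1a (p21) fell from 461 ± 25.7 to 302 ± 23 CPM (-0.61) and Cdkn1c (p57) fell by 3.02.

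Of 23 inflammasome and cell death genes tested, 11 were higher, 9 lower and 3 were not called, with a median log2 fold change of -0.05 (-0.09 with upper-quartile scaling, 0.14 with the filter at 1 CPM and 0.025 with the length correction). Casp4 (caspase-11), which senses intracellular lipopolysaccharide, and its substrate Gsdmd, a pore-forming gasdermin, rose from 1.36 ± 0.625 to 9.14 ± 1.89 CPM (2.74) and from 11.1 ± 0.837 to 33.2 ± 3.32 CPM (1.58). The anti-apoptotic genes Bcl2 and Bcl2l1 rose by 1.32 and 0.80. The death receptor gene Fas fell from 43.6 ± 2.91 to 16.8 ± 1.69 CPM (-1.38), and the pro-apoptotic Bbc3 and Bax fell by 0.85 and 0.60 on the log2 scale.

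Of 26 genes of endoplasmic reticulum folding and the unfolded protein response, 7 were higher, 13 lower and 6 were not called. The pseudokinase gene Trib3 fell from 102 ± 5.13 to 20.6 ± 2.52 CPM (-2.31), Chac1, which degrades glutathione, from 63.7 ± 3.37 to 22.4 ± 2.28 CPM (-1.50), and the asparagine synthetase Asns from 201 ± 8.63 to 76.0 ± 4.94 CPM (-1.41). Atf4, a transcription factor of the stress response, fell from 370 ± 17.8 to 143 ± 16.1 CPM (-1.37). The main chaperone Hspa5 was not called at -0.12, and the stress sensor Ern1 rose by 0.93.

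Of 39 contractile and serum response genes, 14 were higher and 18 lower. Acta2, smooth muscle actin, fell from 788, 864, 747 and 705 CPM to 115, 113, 108 and 109 CPM (-2.80, SE 0.07), and the matricellular genes Ccn3 and Ccn5 fell from 1650 ± 29.7 to 387 ± 12.9 CPM and from 1600 ± 73.9 to 397 ± 32 CPM (-2.10 and -2.01). Ankrd1 rose by 3.0 and Fosl1, an AP-1 subunit, by 1.81. Of 32 adhesion molecules and integrins, 16 were higher, 15 lower and 1 was not called. The integrin genes Itgb3 and Itga2 rose from 8.37 ± 2.09 to 153 ± 4.84 CPM (4.20) and from 12.7 ± 1.12 to 90.8 ± 12.1 CPM (2.84), and Cd44, the hyaluronan receptor, from 220 ± 7.11 to 801 ± 65.8 CPM (1.86). Itga11, part of a collagen receptor of fibroblasts, Postn, periostin, and Itga10, part of a collagen II receptor of chondrocytes, fell by 2.65, 3.31 and 1.02 on the log2 scale. Of 14 genes of sialyltransferases and their carrier Ncam1, 4 were higher and 4 lower, with Ncam1 higher by 0.99.

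Markers of the labelled cell type were present in both groups. Of 10 chondrocyte markers, all were tested, 1 was higher (Hapln1) and 8 were lower, with a summed level of 8100 to 10100 CPM in Control and 1790 to 2010 CPM in SIRT5F101L. Of 10 tested markers of fibroblasts and synovial lining, 3 were higher (Pdgfra, Cd34 and Prg4) and 7 lower, with a summed level of 19300 to 22800 CPM in Control and 8320 to 9230 CPM in SIRT5F101L. Cd34 stood at 5.77 to 9.63 CPM in Control and at 58.5 to 59.9 CPM in SIRT5F101L (3.07). Of 11 macrophage and leukocyte markers, 1 was higher (Cd14) and 9 lower, with Ptprc (CD45) at 1.90 ± 0.311 and 0.709 ± 0.287 CPM. Of 8 neutrophil markers, 3 were tested and higher (S100a8, Camp and Ly6g). In Control these had 4 to 12, 1 to 8 and 0 to 2 counts per library. Genes this low in Control pass the filter only if they are higher elsewhere, so their shared direction is not a separate result. Ly6g had 9 to 13 counts per SIRT5F101L library, a ratio of 20.8 (counting interval 5.41 to 177). The sum over all 8 was 0.696 to 1.15 CPM in Control and 48.7 to 85.1 CPM in SIRT5F101L, nearly all of it S100a8. Mpo, Elane, Ltf and Ngp had too few counts to test. Of 5 osteoblast markers tested, 4 were lower, 3 skeletal muscle markers tested were all lower, and 4 endothelial markers tested were not called, where all 8 listed summed to 3.41 to 4.87 CPM over both groups. The erythroid markers summed to 0 CPM in SIRT5F101L and to at most 0.764 CPM in Control.

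Set directly against the WT libraries in the same fit, SIRT5F101L differed in 6 genes by edgeR (0.0421% of those tested), and 1701 genes had an unadjusted p under 0.05. The 6 were Col11a2, Gnas, Vcam1, Jarid2, Gm19951 and an unnamed ID. Of the 213 genes that the naming rule chose, 1, Col11a2, was among them, at a log2 fold change of -0.63 (edgeR adjusted p = 0.0339). The median size of the log2 difference over these 213 genes was 0.12 against WT and 1.55 against Control, and 202 of them differed from WT by under 1.5-fold. The rule chose most of these genes for their large change against Control, so the 1.55 was raised by that choice. Over all genes tested, the median size against Control was 0.4. The count against WT rested on single libraries: without SIRT5F101L replicate 1 it was 2212, and without each of the other 7 libraries of these groups in turn it was 0, with 944 to 2191 genes at an unadjusted p under 0.05. A difference that was not called does not show that the 2 plasmids act alike.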

How the data were processed

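Poly-A RNA-seq of 12 libraries of primary mouse chondrocytes was used, as raw read counts per gene deposited by the authors. Per the submitters' processing notes, FastQC 0.11.9, HISAT2 2.2.1, HTSeq 2.0.2 and DESeq2 1.38.3 were used with GRCm39 (mm39). The annotation and the strand setting are not given in the sources used here, so reads of overlapping and antisense genes cannot be told apart. Groups follow the treatment label. Counts were fitted with edgeR 4.0.16 (R 4.3.3) by quasi-likelihood with TMM scaling, filterByExpr and 1 mean per group over all 12 libraries, which left 9 residual degrees of freedom and a biological coefficient of variation of 9.185%. Genes were called at a Benjamini-Hochberg adjusted p under 0.05. Library totals run from 15095357 to 24242139 counts, and counting intervals are exact at 95%, cover counting error only and do not cover differences between cultures.

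The members and the gene lists were chosen with earlier results of these data known. Named genes are Sirt5, 10 genes at each end of the fold changes (called, averaging 5 CPM or more, without overlap, predicted genes left out), up to 3 highest and 3 lowest called members of each list at that level, and Col2a1, Acan, Sox9, Mmp13 and Adamts5. Members named beyond that rule were chosen after their values were seen. In the lists, 1 symbol was replaced by its older name and duplicate names were dropped, and 3 (Sting1, Il36a and Ecrg4) were matched through older symbols. Alternatives were scaling by RLE or upper quartile, no filter, a mean of at least 1 CPM, a robust prior, DESeq2 1.42.0, a fit of only the 8 libraries compared, and leaving out each library. A correction for the trend on transcript length (a loess offset with a span of 0.5) was added after seeing the data. Transcript length, the longest transcript of a gene in a GENCODE annotation of the earlier build GRCm38, was known for 98.8% of genes tested. Not every member of the lists is reported here.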

Additional observations from a re-analysis of the deposited data

Results flagged for a closer look

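In 126 measures of library level, chosen after their values were seen, each group of 4 was searched for a highest or lowest library standing far from the other 3. Of the 252 groups, 20 held such a library, where chance gives 12.6, and 11 of the 20 were SIRT5F101L replicate 1.

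In SIRT5F101L replicate 1, Saa3 was at 476 CPM (254 to 282 in the other 3), Cxcl5 at 358 CPM (318 to 320), Ccl5 at 518 CPM (399 to 418), Bst2 at 479 CPM (320 to 325) and Cdkn2a at 86.2 CPM (58.1 to 62.3). Adamts5 was lowest there, at 203 CPM (229 to 232). The mean log2 CPM was 7.06 for glycolysis, glucose and lactate transport (6.92 to 6.94) and 5.87 for respiratory complex I (5.23 to 5.34). The regression slope of log2 CPM against log2 transcript length was -0.0592 (0.0805 to 0.103), the first principal component 49.5 (58.3 to 59.7) and the second -34.3 (7.84 to 11.9).

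In SIRT5F101L replicate 2, Sirt5 was at 1.23 CPM (0.481 to 0.601 in the other 3). In Control replicate 2, Fmod was at 1980 CPM (2270 to 2310) and Eln at 8.56 CPM (12.1 to 12.8), and the mean log2 CPM was 5.62 for cartilage proteoglycans and matrix glycoproteins (5.74 to 5.76) and 6.66 for other collagens (6.87 to 6.89). In Control replicate 3, Bst2 was at 672 CPM (587 to 600) and Slc39a8 at 6.28 CPM (4.61 to 4.82). The mean log2 CPM of inflammasome and cell death genes was 4.01 in Control replicate 1 (4.20 to 4.23), and that of sialyltransferases 4.08 in Control replicate 4 (4.18 to 4.19).

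Col11a2 was lower in SIRT5F101L than in WT by a direct test, with a log2 fold change of -0.626 (edgeR adjusted p = 0.0339). It was the only gene chosen by the naming rule that edgeR called between the plasmid groups. The call was lost without each of SIRT5F101L replicates 2, 3 and 4 and WT replicates 1 to 4 in turn, since edgeR then called 0 genes, with 944 to 2191 at an unadjusted p under 0.05.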

How the results depend on the processing

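Against Control, the count of called genes stayed within 1.5 times the 8647 reported under the 16 alternatives tried, from 8030 without SIRT5F101L replicate 3 to 9179 without SIRT5F101L replicate 1, and 90% to 99.3% of the reported calls were called again in the same direction. None was called in the opposite direction under these 16. Upper-quartile scaling gave 45.0% of calls higher, the lowest share. Against WT, 6 genes were called, and the count was 354 with no filter on low counts, 2 with a robust prior, 43 with DESeq2, 18 with the length correction, 2 with only the 8 libraries compared, and 0 to 2212 when each library was left out in turn (2212 without SIRT5F101L replicate 1). The log2 fold change of Sirt5 turned to -0.0109 with upper-quartile scaling, and ran from -0.315 to 0.182 when each library was left out, with -0.106 without Control replicate 3. Acan turned to -0.0939 with the length correction. Of 212 other named genes, 8 lost the call under at least 1 alternative (Acacb, Ass1, Atp5k, Gpx1, Nr1h3, Rel, Sirt4 and Uqcrc1). The cause was not tested. Of the counts of list members, 29 moved by over 1.5 times and 1187 did not. Of the list medians, 42 moved by more than their SD over the 4 SIRT5F101L libraries and 566 did not. Where SIRT5F101L replicate 1 stood apart, as in complex I, it widened that SD. The complex I median did not count as moved without it. Among the 42, the sign turned for cell death genes (0.144 with the filter at 1 CPM, 0.025 with the length correction), protease inhibitors (-0.353 with the filter at 1 CPM) and sialyltransferases (0.00888 with the length correction). Beside those given in the results, NF-kB genes lower were 1 in place of 2 without Control replicate 4 or SIRT5F101L replicate 1. CC chemokines lower were 2 in place of 1 with upper-quartile scaling or without Control replicate 3. Acute-phase genes lower were 1 in place of 0 with no filter on low counts, without Control replicate 3 or without SIRT5F101L replicate 1. Guanylate-binding and related genes lower were 1 in place of 0 with upper-quartile scaling and without Control replicate 1 or 3 or SIRT5F101L replicate 1 or 2. Without SIRT5F101L replicate 1, the median of the glycosaminoglycan list was 0.0489 in place of 0.106 and of the contractile list -0.184 in place of -0.0928. The glycosaminoglycan median was 0.0542 without Control replicate 2, 0.155 without Control replicate 1 and 0.0108 with the length correction. The sirtuin median was -0.315 in place of -0.0459 without SIRT5F101L replicate 2. Antioxidant genes lower were 5 in place of 8 without SIRT5F101L replicate 2 or 4, and fatty acid oxidation genes higher were 8 in place of 5 with the length correction. No paired analysis was possible because no label ties a library of one group to a library of another, and the replicate numbers, given in accession order, only name libraries. At this depth, genes of a few counts per library, Sirt5 among them, have wide errors.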

Other observations

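The genes here were chosen after their values were seen, and each was tested with edgeR over all genes. The imprinted genes Mest, H19 and Dlk1 were lower in SIRT5F101L, and no list of imprinted genes was counted. Mest fell from 463 ± 28.8 to 11.7 ± 1.4 CPM (log2 fold change -5.31), the noncoding H19 from 732 ± 30.1 to 62.3 ± 5.90 CPM (-3.55) and Dlk1 from 5.74 ± 0.644 to 2.83 ± 0.543 CPM (-1.01). The EGF receptor ligand Ereg rose from 25.8 ± 2.73 to 260 ± 26.6 CPM (3.33) and Hbegf, another ligand, by 1.74. The feedback inhibitors Errfi1 and Dusp6 rose by 3.22 and 2.01. The serotonin receptor genes Htr2a and Htr1b rose by 3.58 and 3.54, and the orphan nuclear receptor Nr4a2 by 3.31.

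Pycr1, the last step of proline synthesis, fell from 65.0 ± 4.97 to 8.57 ± 2.08 CPM (-2.92), Aldh18a1, the first, by 1.03, Pck2 by 2.73 and Mthfd2 by 1.84 on the log2 scale. Phgdh, the first step of serine synthesis, was not called at -0.11. Of the mechanically gated channels, Piezo2 fell from 79.6 ± 7.38 to 9.25 ± 2.24 CPM (-3.09), Piezo1 rose from 326 ± 40.8 to 451 ± 64.6 CPM (0.47), and Trpv4, at 0.15, was not called. Among circadian clock genes, Dbp and Per2 fell by 2.73 and 1.12 on the log2 scale and Arntl rose by 1.34.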
